A study of Mus musculus with 4 samples.

Results

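The genes examined here are 53 components and targets of JAK-STAT, SOCS and interferon signaling, and the data are ATAC-Seq peaks of mouse long-term hematopoietic stem cells (LT-HSCs) with and without the chromatin regulator Sin3B. Members were taken by name: every row of the differential peak table whose assigned gene is on the list. Of the 53 genes, 21 had a row and 32 had none. Those 21 genes held 26 of the 5332 peaks of the table. Irf2 and Stat3 had 3 peaks each, Irf7 had 2, and the remaining 18 genes had 1 each.

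Sin3B is a scaffold protein of a histone deacetylase complex. Libraries labelled WT came from Sin3B+/+ LT-HSCs, which the study's text also calls Sin3B F/F, and libraries labelled 3BKO came from Sin3B-/- LT-HSCs, in which the floxed gene was deleted by Vav1-iCre. Vav1-iCre is active throughout the blood system from embryonic life on, so these cells had lacked Sin3B for long before they were sorted. Both genotypes were on a C57BL/6 background and were sampled at homeostasis, without 5-FU. LT-HSCs were sorted from bone marrow as Lineage- Sca-1+ cKit+ Flk2- CD48- CD150+ cells. Each genotype had 2 libraries, and each library was a pool from 2 mice, 8 mice in all. The age of the mice used for ATAC-Seq, and whether the control mice carried Vav1-iCre, are not given in the sources used here.

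JAK kinases are bound to the cytoplasmic tails of cytokine and interferon receptors. When a receptor binds its ligand, the JAKs phosphorylate STAT proteins, which enter the nucleus and bind DNA. SOCS proteins, PIAS proteins and tyrosine phosphatases restrain the pathway, and interferon regulatory factors (IRFs) act with or downstream of the STATs. In the marrow, interferons can drive quiescent stem cells into division, and many of the other cytokines that reach these cells signal through the same kinases.

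All 26 peaks were more accessible in Sin3B-/- than in Sin3B+/+ LT-HSCs on the deposited scale, but after each library was centred on its own median 14 lay above and 12 below a change of 0. That put 53.8% of the members above 0, against 50.8% of the table, a near-even split that centring on medians builds in. The medians were those of the table's own peaks, so a member below 0 rose less on the deposited scale than the table's typical peak. The change is given as a log2 fold change of Sin3B-/- over Sin3B+/+, fitted by limma on log2(level + 1). A level is the deposited value, taken here as the number of reads in the peak multiplied by 1 factor per library. The median change of the 26 peaks was 0.81, with a range from 0.52 to 2.25. The median over the whole table was 0.76, so that most of the rise of a typical member was shared with the table. Limma called 26 of 26 members higher and 0 lower at an adjusted p under 0.05, beside 95.7% of all peaks called higher. Every peak of the table passed, since the authors had kept only peaks that differed in these same libraries, and the adjusted p-values are therefore no independent evidence. A log2 change of 1 or more was reached by 7 member peaks, which is 26.9% of them, against 22.4% of the table.

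With the libraries centred, 4 of the 26 peaks were called higher by limma and 0 lower, against 7.84% of the table called higher. These 4 were the peak 4085 bp past the end of Irf2, the intronic peak of Jak2, and the peaks beyond the ends of Ifit1 and Il4ra. The lowest Sin3B-/- library was above the highest Sin3B+/+ library at 26 of 26 member peaks, and the genotypes were apart in this way, in one direction or the other, at 100.0% of the peaks of the table. An exact permutation test of 2 against 2 libraries cannot reach a p-value below 0.33.

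Many of the calls rested on both Sin3B-/- libraries. Without Sin3B-/- replicate 1, 16 of 26 peaks were called higher, against 62.2% of the table, and without Sin3B-/- replicate 2, 10 were, against 33.0%. With the replicate number as a block, 19 were called, against 71.9% of the table. Each library's values came in even steps, taken here as the worth of 1 read, although the table does not state it. If so, 1 unit of level stood for more reads in the other libraries than in Sin3B-/- replicate 2. The factors were 4.38, 2.92 and 1.60 for Sin3B+/+ replicates 1 and 2 and Sin3B-/- replicate 1. They equal ratios of depth only if the authors scaled by depth, which is not stated. Inferred reads over the table summed to 8705855 and 4836132 in Sin3B+/+ replicates 1 and 2, and 4541377 and 3102888 in Sin3B-/- replicates 1 and 2. In reads inferred this way, all 26 peaks held fewer in Sin3B-/- replicate 2 than in Sin3B+/+ replicate 1, and 14 held fewer in both Sin3B-/- libraries than in both Sin3B+/+ libraries. The part of depth in the changes was not tested. The smallest member value in a library came to 85 inferred reads.

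**Figure D1:**
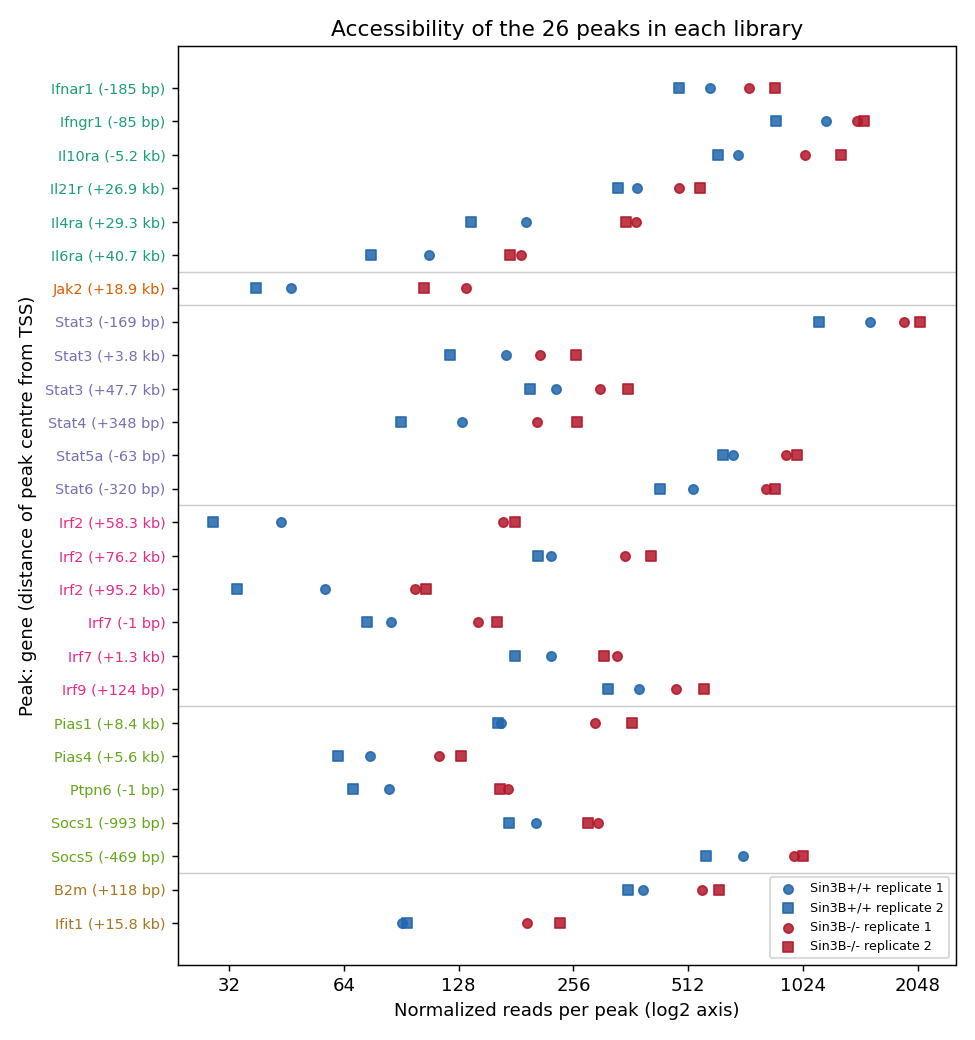
Level of each of the 26 peaks in each library (normalized reads per peak, log2 axis), with blue for Sin3B+/+, red for Sin3B-/-, circles for replicate 1 and squares for replicate 2. Lines divide receptors, kinase, STATs, IRFs, negative regulators and interferon targets from top to bottom, and in all 26 rows the red points lie to the right of the blue ones on the deposited scale, although 12 of the changes are below 0 after centring.

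Interferon-stimulated response elements (ISREs) bind IRFs, and gamma-activated sites (GAS) bind STAT dimers. Exact matches were searched on both strands of every peak. An ISRE was taken as GAAA, any 2 bases and GAAA, a GAS as TTC, any 3 bases and GAA, and a wider GAS, the spacing preferred by STAT6, as TTC, any 4 bases and GAA. The GAS patterns read the same on both strands. Of the 26 peaks, 8 held a match, and their 10 matches are printed as places in these peaks that fit the patterns of the pathway's own factors. Sites that depart from these patterns were not searched for. Each is written 5′ to 3′ from GRCm38 with 10 flanking bases on each side and the match in capitals.

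The ISRE matches lay in the peaks of B2m, Jak2 and Pias1, the last with a pair of them. In order, the windows are chr2:122147538-122147567 (plus strand), chr19:29271382-29271411 (plus), chr9:62972255-62972284 (plus) and chr9:62972376-62972405 (minus).
B2m: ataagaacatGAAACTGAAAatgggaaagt
Jak2: gttaatgagtGAAACCGAAAggatctggta
Pias1, plus strand: accaaaaagaGAAACTGAAAgcaagaacag
Pias1, minus strand: cttaaatcaaGAAAATGAAAcaagtgtgaa

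The GAS matches lay in the peaks of Ifnar1, Il10ra, Il4ra and Irf9, at chr16:91485200-91485228, chr9:45274684-45274712, chr7:125581601-125581629 and chr14:55604114-55604142, all written on the plus strand. The 2 matches with the wider spacing were in the peaks of Irf9 (chr14:55603976-55604005) and Socs5 (chr17:87107266-87107295).
Ifnar1: ggcgggggcgTTCACGGAAggggcggggc
Il10ra: ccccagtcatTTCAAAGAAgtgttgtgtc
Il4ra: ccagcctgcgTTCCTGGAActccccaact
Irf9: accacgtggtTTCTAGGAAatgcacctcc
Irf9, wider spacing: ggagataaccTTCCTGGGAAccagacacgg
Socs5, wider spacing: ctcctccctcTTCGGCCGAAcccggccgct

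The share of member peaks with a match was close to that of the table. An ISRE was present in 3 of 26 members, or 11.5%, and in 9.41% of all peaks. A GAS was present in 4, or 15.4%, against 16.6%, and the wider spacing in 2, or 7.69%, against 14.1%. Any of the 3 patterns was found in 30.8% of members and 34.6% of the table. The matches nearest to a peak centre were the GAS of Irf9 at 19 bp, the wider GAS of Socs5 at 70 bp and the ISRE of Jak2 at 73 bp. A match is a description of the letters and does not show that a factor was bound.

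Among the receptors, 6 of 10 genes had a peak. All 6 peaks were called higher in Sin3B-/- LT-HSCs, as were 95.7% of the table, while 3 of the 6 fell below 0 after centring. The median log2 change was 0.71, with a range from 0.52 to 1.15. The interferon receptors gave small changes at their promoters. Ifngr1, a subunit of the interferon gamma receptor, had a peak at chr10:19591343-19592386, centred 85 bp upstream of its transcription start site (TSS). Its levels were 1172.8 and 870.27 in the Sin3B+/+ libraries and 1416.4 and 1477 in the Sin3B-/- libraries. The Sin3B+/+ pair was spread more widely than the Sin3B-/- pair. Its upper value came near the Sin3B-/- values without overlap, which held at 100.0% of the table. The log2 change was 0.52 (SE 0.20, limma adjusted p = 0.012), the smallest of the 26, and it ranged from 0.30 to 0.73 when 1 library was left out. The low end, 0.30, came without Sin3B+/+ replicate 2, and the change was 0.55 and 0.49 without Sin3B-/- replicates 1 and 2. This peak was not called with the replicate block (limma adjusted p = 0.13). Nor were the peaks of Ifnar1, Il21r, Stat5a, Irf9 and Socs5 and the promoter peak of Stat3.

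Ifnar1 encodes a subunit of the receptor for type I interferons. Its peak at chr16:91484672-91485434, centred 185 bp upstream of the TSS, had levels of 582.05 and 485.01 in Sin3B+/+ and 737.89 and 866 in Sin3B-/- LT-HSCs. The change was 0.59 (SE 0.20), and -0.16 after centring. The GAS printed above for Ifnar1 lies in this peak. The partner subunits Ifngr2 and Ifnar2 had no row.

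Il4ra, the receptor chain shared by interleukin-4 and interleukin-13, had the largest change of the receptors. The peak, chr7:125581001-125581746, lies 1527 bp past the end of the gene, and the nearest TSS is that of Gm44876. It measured 191.66 and 138.13 in the Sin3B+/+ libraries and 374.26 and 352 in the Sin3B-/- libraries. The log2 change was 1.15 (SE 0.21), and 0.40 after centring, where it was still called (limma adjusted p = 0.025).

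Il6ra, which binds interleukin-6, had an intronic peak at chr3:89872164-89872716 with levels of 106.78 and 75.41 in Sin3B+/+ and 186.19 and 174 in Sin3B-/- LT-HSCs. The log2 change was 0.996 (SE 0.22), and 0.24 after centring. Il10ra, the ligand-binding chain of the interleukin-10 receptor, had an intergenic peak 5249 bp upstream of its TSS at chr9:45274080-45274717. Levels there were 691.8 and 611.83 against 1033.4 and 1289, a change of 0.83 (SE 0.20), close to the table median. Il21r, the interleukin-21 receptor, had an intronic peak at chr7:125630164-125630765 with levels of 375.56 and 335.91 against 484.22 and 551. Its change was 0.54 (SE 0.21), below the table median.

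Of the 4 JAK kinases only Jak2 had a row, and Jak1, Jak3 and Tyk2 had none. Jak2 transmits the signals of thrombopoietin, erythropoietin and interferon gamma. The peak, chr19:29271084-29271563, lies in an intron 18882 bp downstream of the TSS and holds the ISRE printed above. Its levels were 46.55 and 37.7 in the Sin3B+/+ libraries and 133.71 and 104 in the Sin3B-/- libraries. The lower Sin3B-/- value was more than double the higher Sin3B+/+ value. The mean rose from 42.1 ± 6.26 to 119 ± 21.01 (SD, n = 2 libraries each), which is 2.82-fold. The log2 change was 1.47 (SE 0.25, limma adjusted p = 1.4e-07), rank 224 of 5332, and it stayed between 1.29 and 1.65 whichever library was left out. After centring it was 0.72 (limma adjusted p = 0.0082).

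Of the 6 STAT genes, Stat3, Stat4, Stat5a and Stat6 had peaks, and Stat2 and Stat5b had none. All 6 STAT peaks were called higher, as were 95.7% of the table, but 4 of them were below 0 after centring. The median change of the 6 was 0.66, with a range from 0.55 to 1.08. Stat4, which acts downstream of interleukin-12, changed most. Its peak at chr1:52008386-52008796 overlaps an untranslated exon, 348 bp from an annotated TSS. Levels of 130.74 and 90.15 in the Sin3B+/+ libraries stood against 204.94 and 261 in the Sin3B-/- libraries. The genotypes did not overlap, as at 100.0% of the peaks of the table. The log2 change was 1.08 (SE 0.22) and 0.33 after centring.

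Stat6, the mediator of interleukin-4 signals, had a promoter peak at chr10:127641792-127643540, centred 320 bp upstream of the TSS. Levels of 526.15 and 432.91 in Sin3B+/+ stood against 820.99 and 864 in Sin3B-/- LT-HSCs. The change was 0.82 (SE 0.20), and 0.07 after centring. It was 0.85 and 0.78 without Sin3B-/- replicates 1 and 2. Stat5a, which serves several blood cell cytokines, had a promoter peak at chr11:100860114-100860728 with 672.63 and 632.74 against 924.08 and 987. Replicates lay close together within each genotype. The change was nevertheless small, 0.55 (SE 0.20), and -0.20 after centring.

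Stat3, which is activated by interleukin-6 and related cytokines, had 3 peaks of like change. The promoter peak, chr11:100939228-100940190, measured 1531 and 1126.3 in Sin3B+/+ and 1884.4 and 2076 in Sin3B-/- LT-HSCs, a log2 change of 0.59 (SE 0.20). The intronic peak 3812 bp into the gene changed by 0.69 (SE 0.21). The intronic peak 47742 bp into the gene, for which the TSS of Stat5a is nearest, changed by 0.62 (SE 0.21). After centring the 3 changes were -0.16, -0.06 and -0.13. Their differences from one another were smaller than their standard errors.

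The IRFs held both the largest change and some of the smallest. Of 6 IRF genes, Irf2, Irf7 and Irf9 had rows, with 6 peaks. All 6 were called higher, as were 95.7% of the table, and 2 of the 6 were below 0 after centring. The median change of the 6 was 0.87, with a range from 0.58 to 2.25. Irf2 encodes a factor that binds ISREs and can oppose activation by IRF1. Its peaks all lay downstream of the gene. The strongest, chr8:46851543-46851978, is 4085 bp past the end of Irf2 and 58261 bp from its nearest Irf2 TSS, with the TSS of Gm45481 closer. Levels were 43.81 and 29.13 in the Sin3B+/+ libraries and 167.45 and 180 in the Sin3B-/- libraries. The mean rose 4.76-fold, from 36.5 ± 10.4 to 174 ± 8.87 (SD, n = 2 libraries each). The log2 change of 2.25 (SE 0.25, limma adjusted p = 3.0e-17) ranked 24 of 5332. It was 1.496 after centring (limma adjusted p = 4.6e-12) and between 1.96 and 2.53 with 1 library left out. By the steps of the values, these levels correspond to 192 and 85 inferred reads in the Sin3B+/+ libraries and 268 and 180 in the Sin3B-/- libraries.

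The second Irf2 peak, chr8:46869360-46870101, lies 21902 bp past the gene and measured 224.06 and 207.03 against 348.64 and 409. Its change of 0.81 (SE 0.21) was near the table median. The third, chr8:46888482-46888975, lies 41024 bp past the gene and measured 57.27 and 33.59 against 98.09 and 105, a change of 1.19 (SE 0.26). Without Irf2 the median change of the remaining 23 member peaks was 0.69, below the table median.

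Irf7, the main inducer of type I interferon genes, had a promoter peak at chr7:141266346-141266619, centred 1 bp from its TSS. Levels of 85.33 and 73.69 in the Sin3B+/+ libraries stood against 143.7 and 161 in the Sin3B-/- libraries, a change of 0.93 (SE 0.23), and 0.18 after centring. Its exonic peak, 1332 bp into the gene, changed by 0.67 (SE 0.21). Irf9, an IRF that acts in the response to type I interferons, had a peak at chr14:55603585-55604633, inside one annotated transcript start by 124 bp and upstream of another. It measured 380.58 and 315.68 against 474.23 and 564, a change of 0.58 (SE 0.21). After centring the change was -0.18. Both GAS spacings occur in this peak, as printed above.

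Of the 17 negative regulators, 5 had a peak: Socs1, Socs5, Ptpn6, Pias1 and Pias4. All 5 were called higher, as were 95.7% of the table, and 2 of the 5, both SOCS genes, were below 0 after centring. The median change of the 5 was 0.83, with a range from 0.61 to 1.15. Ptpn6 encodes the phosphatase SHP-1, which removes phosphate from JAKs and receptors in blood cells. Its promoter peak, chr6:124738539-124738891, is centred 1 bp upstream of the TSS and measured 83.96 and 67.52 in the Sin3B+/+ libraries and 172.45 and 164 in the Sin3B-/- libraries. The values were closer within each genotype than between them, and the genotypes were without overlap at 100.0% of the table. The mean rose from 75.7 ± 11.6 to 168 ± 5.98 (SD, n = 2 libraries each). The log2 change was 1.15 (SE 0.23, limma adjusted p = 4.8e-06), the largest among the 10 promoter peaks, and it stayed between 0.99 and 1.30 with 1 library left out. After centring it was 0.40. A peak assigned to the neighboring gene Grcc10, 1557 bp away, changed by 0.79.

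Socs1, the inhibitor of JAK kinases that interferon gamma itself induces, had a peak at chr16:10786353-10786706, centred 993 bp upstream of its TSS at the edge of the promoter window. Levels of 204.66 and 173.44 in the Sin3B+/+ libraries stood against 296.16 and 279 in the Sin3B-/- libraries, a change of 0.61 (SE 0.21), and -0.15 after centring. Socs5 belongs to the same family of inhibitors. Its promoter peak, chr17:87106808-87107613, measured 711.65 and 570.01 against 971.57 and 1024. The change was 0.65 (SE 0.20), and -0.11 after centring. Both SOCS peaks thus rose less than the median peak of the table. Without Sin3B-/- replicates 1 and 2 in turn, the change was 0.56 and 0.65 for Socs1 and 0.68 and 0.61 for Socs5. Cish, Socs2, Socs3, Socs4, Socs6 and Socs7 had no row.

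The PIAS proteins are SUMO ligases that bind activated STATs. Pias1 had an intronic peak at chr9:62972188-62972819 with levels of 164.96 and 162.13 in Sin3B+/+ and 291.78 and 364 in Sin3B-/- LT-HSCs. The Sin3B+/+ replicates were nearly equal, and the change was 0.99 (SE 0.21). This is the peak with an ISRE match on each strand. Pias4 had an intronic peak at chr10:81162023-81162620 with 74.84 and 61.7 against 113.71 and 130, a change of 0.83 (SE 0.24). After centring the changes were 0.24 for Pias1 and 0.08 for Pias4.

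Of 8 interferon target genes, Ifit1 and B2m had a row. Both peaks were called higher, as were 95.7% of the table, and B2m fell below 0 after centring while Ifit1 did not. Ifit1 encodes an RNA-binding antiviral protein. Its peak, chr19:34656365-34657065, lies 6356 bp past the end of the gene and measured 91.04 and 93.57 in the Sin3B+/+ libraries and 193.69 and 236 in the Sin3B-/- libraries. The Sin3B+/+ replicates were almost identical, and both Sin3B-/- values were more than double them. The log2 change was 1.20 (SE 0.22, limma adjusted p = 6.8e-07), and 0.45 after centring (limma adjusted p = 0.041). B2m, the light chain of MHC class I, had an exonic peak at chr2:122147377-122148232, centred 118 bp past the TSS. Levels were 389.94 and 356.13 against 555.45 and 616, a change of 0.65 (SE 0.21). After centring B2m was at -0.10.

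**Figure D2:**
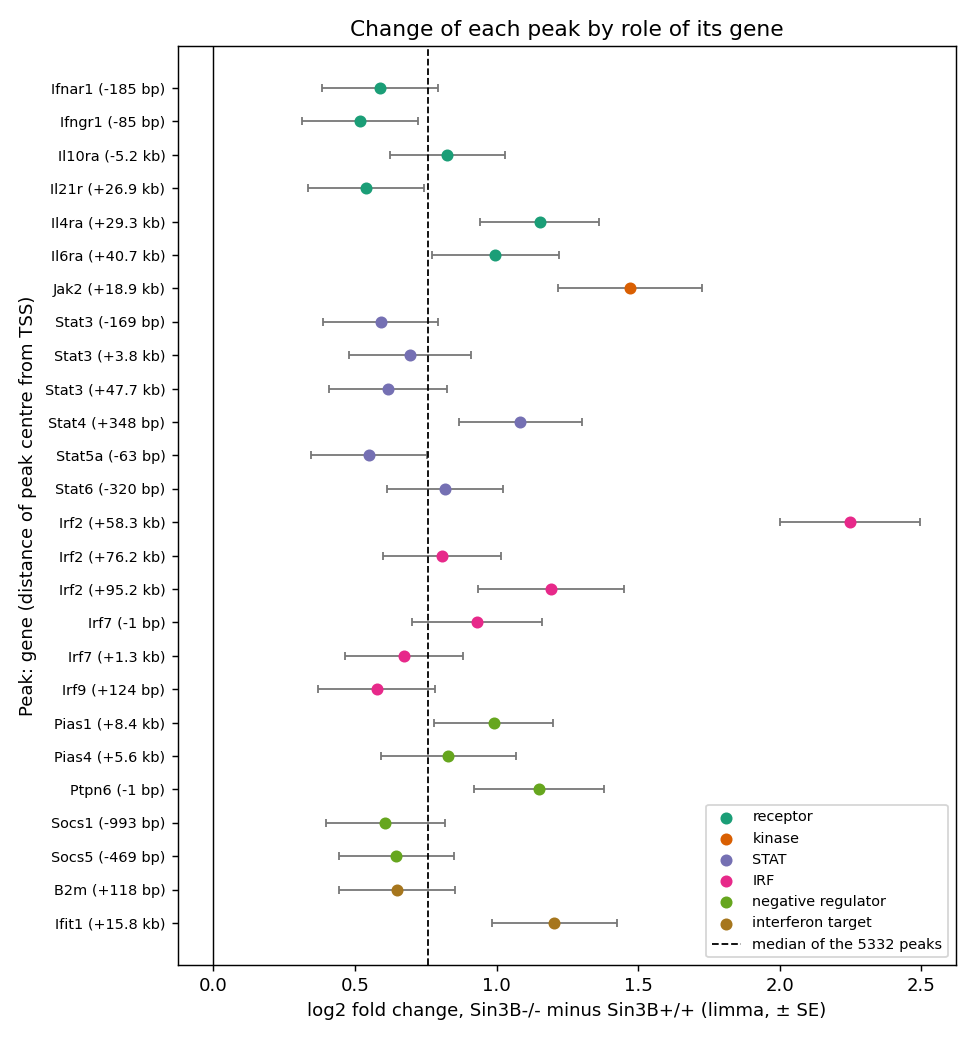
Log2 fold change of each peak, Sin3B-/- minus Sin3B+/+ (points, limma, with bars of 1 SE), coloured by the role of its gene, with the median of the 5332 peaks as a dashed line at 0.76. All 26 points lie right of 0 on the deposited scale, but 12 are below 0 after centring, and the Irf2 peak at 2.25 and the Jak2 peak at 1.47 lie farthest right.

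Position in the gene went with the size of the change. Of the 26 peaks, 10 had their centre no more than 1000 bp before and 100 bp after a TSS and are called promoter peaks here. That is 38.5% (95% Wilson interval 22.4 to 57.5), against 33.3% of the table. The 10 promoter peaks had a median log2 change of 0.60, and 7 of them were below 0 after centring. The other 30% were above 0, as were 29.1% of the promoter peaks of the table. The 16 other peaks had a median change of 0.91, or 0.83 without the 3 Irf2 peaks. The table showed the same order, with medians of 0.67 at promoters and 0.83 elsewhere, so the difference is not particular to these genes and was not tested for them. The levels moved with position as well: the median level was 664 at member promoters and 218 at the other member peaks, against 616 and 167 in the table. Intergenic peaks made up 23.1% of members and 22.3% of the table. Member promoter peaks had a median ratio of observed to expected CpG of 0.512, compared with 0.706 for promoter peaks of the table.

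**Figure D3:**
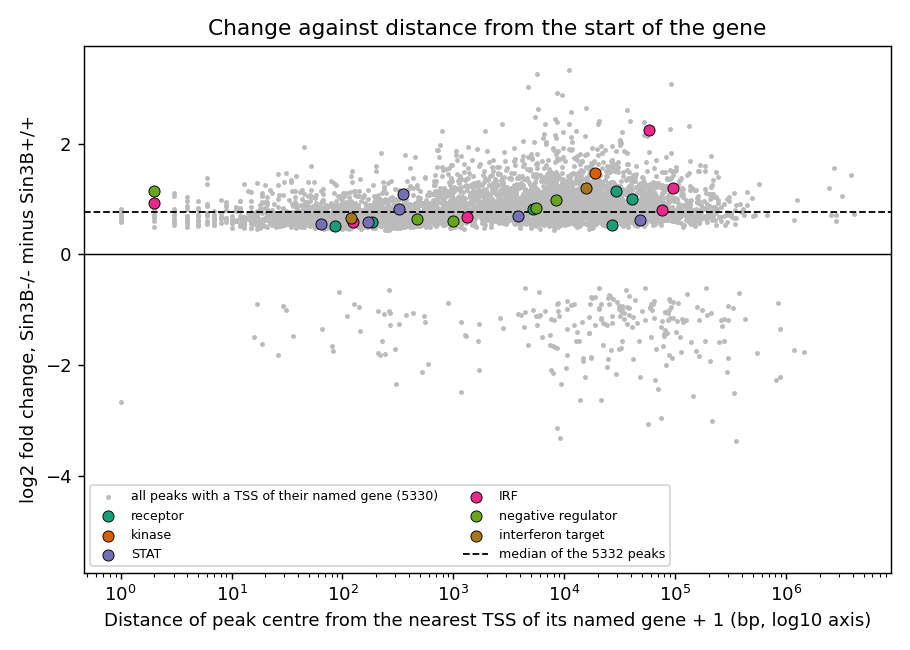
Log2 fold change, Sin3B-/- minus Sin3B+/+, against the distance of the peak centre from the nearest TSS of its named gene (plus 1 bp, log10 axis), in gray for 5330 peaks of the table and in color for the 26 members by role. On the deposited scale every member lies above 0, where 12 do not after centring, and the members within 1000 bp of the TSS lie between 0.52 and 1.15.

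The 32 genes with no row in the table analysed here were the receptors Ifnar2, Ifngr2, Il10rb and Il6st, the kinases Jak1, Jak3 and Tyk2, the factors Stat2, Stat5b, Irf1, Irf3 and Irf5, the negative regulators Cish, Socs2, Socs3, Socs4, Socs6, Socs7, Pias2, Pias3, Ptpn1, Ptpn2, Ptpn11 and Sh2b3, the interferon targets Gbp2, Ifit3, Isg15, Mx1, Nlrc5 and Tap1, and the listed genes Camk2d and Ncam1. The table analysed here may not hold every peak that met the authors' threshold, and a missing row does not show that a gene had no accessible site or no difference. For 3 of them a peak named for another gene lay in or within 5000 bp of the gene. A peak inside Irf1, assigned to Gm17334 (chr11:53772525-53772881), measured 80.31 and 64.1 in Sin3B+/+ and 128.08 and 143 in Sin3B-/- LT-HSCs, a change of 0.91 (SE 0.24). A peak 1632 bp from Irf3, assigned to Scaf1, changed by 1.04 (SE 0.22). A peak 75 bp from Tap1, assigned to the immunoproteasome gene Psmb8, changed by 0.48 (SE 0.20) on the deposited scale and by -0.27 after centring. The peaks at Irf1 and Irf3 were at 0.15 and 0.29 after centring.

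A second list held 135 further genes of the same pathways, of which 38 had a row, with 49 peaks. Limma called 48 of the 49 higher and 1 lower on the deposited scale, beside 95.7% of the table called higher. The median change was 0.73. After centring 26 of the 49 lay below 0 and 46.9% above, beside 50.8% of the table above 0. The 31 other cytokine receptors gave 7 peaks from 6 genes, with 6 higher and 1 lower. The 20 other interferon factors and sensors gave 7 peaks, the 46 other interferon targets 12, the 22 JAK-STAT modulators 13 and the 16 STAT targets 10, all higher. Their medians ran from 0.69 for STAT targets to 0.78 for modulators, beside the table median of 0.76.

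The 1 peak that was lower belonged to Prlr, the prolactin receptor. It lies at chr15:10144416-10144925, 32985 bp upstream of the TSS, and measured 63.66 and 77.81 in Sin3B+/+ and 23.12 and 23 in Sin3B-/- LT-HSCs. The Sin3B-/- values were nearly equal, and the log2 change was -1.57 (SE 0.30, limma adjusted p = 1.8e-06). The 4 peaks with the next largest changes all rose on the deposited scale. Pik3r1, a regulatory subunit of PI3-kinase, had an intergenic peak 16174 bp from the gene. It went from 102.45 and 68.55 to 248.05 and 233, a change of 1.51 (SE 0.22). The other Pik3r1 peaks changed by 0.58, 0.78 and 0.83, and by -0.18, 0.03 and 0.08 after centring. Rnf213, an interferon-induced ubiquitin ligase, had 26.24 and 28.11 against 74.98 and 76, a change of 1.44 (SE 0.29). Trim25, a ubiquitin ligase of the RIG-I pathway, had 201.7 and 122.71 against 370.51 and 402, a change of 1.29 (SE 0.21). Cblb, a ubiquitin ligase that dampens receptor signaling, had an intronic peak with 72.33 and 55.53 against 124.96 and 170, a change of 1.19 (SE 0.24). The promoter peak of Cblb changed by 0.58, and by -0.17 after centring. For the 4 peaks with the large rises, the changes after centring were 0.76 at Pik3r1, 0.69 at Rnf213, 0.54 at Trim25 and 0.44 at Cblb. Limma still called Pik3r1 (adjusted p = 3.4e-05) and Trim25 (adjusted p = 7.3e-04) then, but not Rnf213 (adjusted p = 0.063) or Cblb (adjusted p = 0.11).

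The identity of the sorted cells cannot be checked in a table of differential peaks. Of 10 LT-HSC marker genes, 5 had 6 peaks, all 6 higher in Sin3B-/- LT-HSCs as were 95.7% of the table. After centring 4 of the 6 were above 0, beside 50.8% of the table. Of 12 genes of other marrow cells none had a row. Sin3b had no row either, so the deletion was not seen in these data. A change in all cells and a change in a part of the sorted cells cannot be told apart in bulk libraries.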

How the data were processed

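ATAC-Seq was measured in 2 Sin3B+/+ and 2 Sin3B-/- libraries, grouped by the sample labels. Reads were trimmed, mapped by Bowtie2 and freed of duplicates, and MACS2 called the peaks. The authors then used DiffBind with DESeq2 to compare the genotypes, and the table holds peaks under an FDR of 0.05. Tool versions are not given in the sources used here. The deposited values per library are a signal, taken here as read numbers of each peak scaled by the authors with a single factor for each library. They were whole multiples of a step in 100% of values, within 0.01 in units of the level. A step was taken as 1 read, which the table does not state. In that case 3 steps, the floor for counting, came to 0.684, 1.03, 1.87 and 3 in Sin3B+/+ replicates 1 and 2 and Sin3B-/- replicates 1 and 2. Total library depth is unknown here. The table also holds the authors' own mean levels, fold changes, p-values and FDR, which were not used.

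Levels were compared with limma 3.58.1 in R 4.3.3 (empirical Bayes with trend, two-sided) on log2(level + 1), by genotype, with Benjamini-Hochberg adjustment over all 5332 peaks. The pseudocount can understate changes of low peaks, and the p-values measure the spread between pools. The processing notes name mm9, but 5330 of 5332 gene identifiers were found in GENCODE M21 and 96.6% of those matched its gene start and end. GRCm38 and the GENCODE M21 basic TSSs were therefore used. Intervals are Wilson intervals and cover counting error only.

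Members and lists were chosen with earlier results of these data known. Every member gene with a row was named. Values in each library were given for promoter peaks or, without one, for the peak nearest to the TSS, and from the second list for the 5 largest changes and all peaks lower in Sin3B-/- LT-HSCs. The values of the Irf2 peaks farther away, of the peaks of neighboring genes and of peaks singled out beyond that rule were chosen after they were seen. Alternatives were other pseudocounts, centred libraries, a replicate block, libraries left out, stricter thresholds, assignment by nearest TSS, other promoter windows and the central 200 bp of peaks for motifs.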

Additional observations from a re-analysis of the deposited data

How the results depend on the processing

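Members called higher in Sin3B-/- LT-HSCs numbered 26. They were 26 with pseudocounts of 0.5 or 4 and with voom on recovered reads (chosen after seeing the data), 25 at an adjusted p under 0.01, 23 by nearest TSS, 7 with a log2 change of 1 or more, 4 with centred libraries, and 10 to 26 with 1 library left out, where the lone library of a genotype is assumed to vary like the others. The 23 by nearest TSS are not a subset of the 26. The peaks of Irf2, Il4ra and Il6ra dropped out, and peaks assigned to Scaf1 and Gtf3c1 came in. Among those lost were the Irf2 and Il4ra peaks called with centred libraries. A minimum level of 20 removed 0 peaks. For the second list the counts were 48 higher, 9 with a log2 change of 1 or more, 3 centred and 16 to 48 with 1 library left out, with 1 lower and 3 lower when centred. For the whole table they were 5103 higher, 1193, 418 and 1759 to 5102. Centring removed a shift of 0.75 and put 12 of the 26 member peaks below 0, beside the Psmb8 peak near Tap1 at -0.27: Ifnar1 at -0.16, Ifngr1 at -0.24, Il21r at -0.21, Stat3 at -0.16, -0.058 and -0.13, Stat5a at -0.20, the exonic Irf7 peak at -0.079, Irf9 at -0.18, Socs1 at -0.15, Socs5 at -0.11 and B2m at -0.10. The medians were those of the table's selected peaks, 95.7% of them called higher in Sin3B-/- LT-HSCs. Centring therefore removed the rise that these peaks share, and the 12 members below 0 rose less than that. With the replicate block 19 members, 35 peaks of the second list and 3836 of the table were called higher. The same-numbered libraries came from different mice and their deviations correlated at -0.10, and the numbers were not taken as pairs. A shared preparation was not tested. With crossed numbers as a block (chosen after seeing the data) 26 members and 5103 peaks were called. That block joins libraries that were mostly the higher of their genotype, so its count is no independent check. Sin3B+/+ replicate 1 was above replicate 2 at 87.7% of the table, and Sin3B-/- replicate 2 above replicate 1 at 72.0%. Of 31 named peaks under 9 alternatives, 220 values kept their direction and side of the threshold, 47 kept the direction only and 12 reversed. All 12 reversals came with centred libraries. In the central 200 bp, ISREs were in 3.85% and GAS in 3.85% of member peaks, against 2.98% and 5.50% of the table. The promoter share was 46.2% within 1000 bp of a TSS on either side and 42.3% within 500 bp. The planned count tests on recovered reads were not run, because the worth of 1 read was inferred from the steps of the values and is not stated with the table. The voom fit has the same limit. Its library sizes were set from the steps, which keeps the deposited scaling, so it is no independent check. The smallest value of a member in a library came to 85 inferred reads. The cause of these shifts was not tested.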
